A study of Mus musculus with 7 samples.

Results

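Calca-rich nuclei were the tumor nuclei in which the calcitonin gene took an unusually large share of the RNA. Calca gives 2 peptides by alternative splicing, the hormone calcitonin and the neuropeptide CGRP. Nuclei of 2000 to 12000 transcripts with at most 10% mitochondrial transcripts and no transcript of Ptprc, Flt1, Ptprb, Sftpc or Col1a2, which mark leukocytes, endothelium, alveolar type 2 cells and fibroblasts, were taken. A nucleus was called Calca-rich if Calca made up at least 0.3% of its transcripts. The members were thus chosen by their measured Calca share and by the absence of the 5 genes. This left 2151 Calca-rich nuclei among 19120 nuclei that met the other criteria, of 38353 nuclei in all. The contrast was the 2732 nuclei of the same depth and exclusions with no Calca transcript (Calca-0 nuclei), and 14237 nuclei lay between the classes. Since Calca and the 5 excluded genes chose the classes, their levels are given as a description only.

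The nuclei came from fresh-frozen endpoint lung tumors of 4 male mice in a model of small cell lung cancer. RP1 and RP2 carried Rb1 fl/fl and Trp53 fl/fl, and RPC1 and RPC2 carried in addition a Casp8 allele that the labels write as Casp8-/- and the study's methods describe as conditional. In all 4 animals recombination came from inhaled adenovirus with Cre under the CMV promoter, which is not restricted to a cell type, so any lung cell that took up the virus could lose the alleles. Casp8 encodes caspase 8, the initiator protease of death receptor apoptosis. Nuclei were barcoded in wells that each held 1 animal, and 7 pooled sublibraries each held all 4 animals, so the animal was the replicate (n = 2 per genotype). No barcode and no well was shared between animals.

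Pulmonary neuroendocrine cells, the cells from which small cell lung cancer often arises, sense airway stimuli and store amines and peptides in dense-core granules. Granins such as chromogranin A pack these granules, prohormone convertases cut the peptide precursors, and calcium entry through voltage-gated channels triggers their release. CGRP is among the peptides these cells are known for. Calca is used as a marker of 1 neuroendocrine variant of the tumor.

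Calca-rich nuclei were a small class in RP and a large one in RPC tumors. They numbered 103 of 3638 eligible nuclei in RP1 (2.83%, 95% exact binomial interval 2.32 to 3.42), 68 of 3684 in RP2 (1.85%, 1.44 to 2.33), 1114 of 6693 in RPC1 (16.6%, 15.8 to 17.6) and 866 of 5105 in RPC2 (17.0%, 15.9 to 18.0). Both RPC animals lay above both RP animals. The Calca-0 nuclei showed the opposite order, with 25.7% and 24.8% of eligible nuclei in the RP and 6.98% and 8.21% in the RPC animals. The intervals cover counting error only, and with 2 animals per genotype these shares are a description of the animals. Median depth of the eligible nuclei was 3319, 3324, 3574 and 3447 transcripts in the order RP1, RP2, RPC1 and RPC2, which is the order used for every series of 4 values below.

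**Figure D1:**
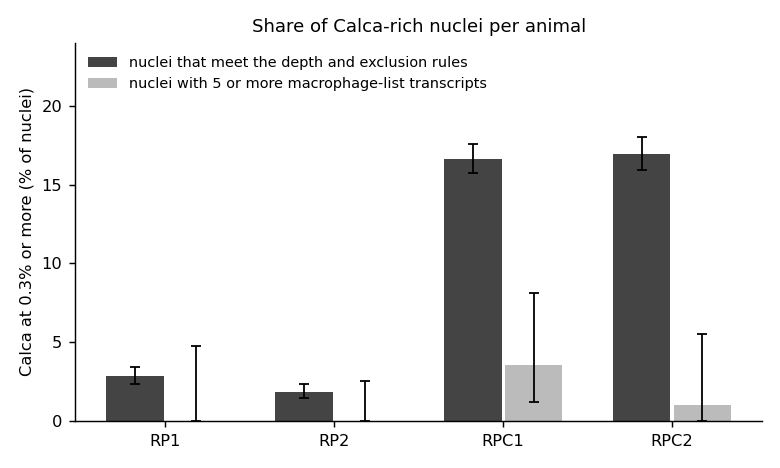
Share of eligible nuclei (percent) that were Calca-rich in each animal (dark bars) and the same share of nuclei with at least 5 macrophage transcripts (light bars), with 95% exact binomial intervals. The RP animals sit at 2.83% and 1.85% and the RPC animals at 16.6% and 17.0%.

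The share varied among the barcoding wells of an animal. In RP2 it was 0.60% in one well and 2.88% in the other, and in RPC1 it ran from 10.8% to 21.5% over 3 wells. In RP1 the wells gave 2.55% and 3.28%, and in RPC2 16.4% and 17.6%. The lowest RPC well thus lay above the highest RP well. Over the 7 sublibraries the share of RP1 ran from 1.38% to 4.54%, that of RP2 from 1.03% to 2.58%, that of RPC1 from 15.2% to 18.5% and that of RPC2 from 15.04% to 17.9%. Free RNA can place Calca in nuclei that do not express it. A macrophage list was used for comparison, which holds Lyz2, a marker later dropped as held by tumor nuclei. Among nuclei with at least 5 transcripts of this list, 0 of 76, 0 of 145, 5 of 140 and 1 of 99 reached the Calca threshold. Their median depths were 4422, 3847, 4607 and 3579 transcripts. A count of 0 in these nuclei allows a share of up to 4.74% in RP1 and 2.51% in RP2, so the RP shares did not stand clear of what these few nuclei can limit. Nuclei with at least 5 transcripts of an endothelial list gave 3.23, 2.03, 17.4 and 21.9%, close to or above the share of all nuclei, but this list holds Vwf, which Calca-rich nuclei held at 1386 to 2640 CPM. With the endothelial receptor genes Flt1 and Ptprb alone, a choice made after the data had been seen, 0 of 35, 0 of 47, 0 of 53 and 0 of 47 nuclei reached the threshold, which allows up to 10, 7.55, 6.72 and 7.55%.

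Calca (ENSMUSG00000030669, GRCm39 chromosome 7, 114230712 to 114235592, minus strand) had a median of 10, 10, 13 and 14 transcripts per Calca-rich nucleus, and at most 21, 48, 59 and 67. Summed over the class this was 3911, 3991, 4111 and 4295 CPM (the counts of a gene scaled to a fixed class total of transcripts). The threshold cut through a continuous range of values. Just outside it, at 0.25 to 0.3% Calca, lay 70, 46, 559 and 311 nuclei with a median of 8.5, 9, 10 and 10 Calca transcripts. Just inside it, at 0.3 to 0.35%, lay 45, 26, 370 and 249 nuclei with a median of 9, 9.5, 11 and 11.

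The class was checked against markers of lung and tumor cell types. Markers of the neuroendocrine list without Calca summed to 5030, 4188, 4955 and 5517 CPM in Calca-rich nuclei, against 4961, 3522, 3927 and 4091 CPM in Calca-0 nuclei, so that both classes held neuroendocrine RNA, at nearly the same level in RP1. Chga had 326, 231, 222 and 246 CPM in Calca-rich nuclei. Once the markers that tumor nuclei express were dropped, club cell markers summed to 30.6, 14.7, 81.8 and 107 CPM in Calca-rich and 71.1, 307, 2007 and 835 CPM in Calca-0 nuclei. Alveolar type 1 markers summed to 71.4, 39.3, 25.6 and 42.1 against 60.1, 155, 306 and 587 CPM, and alveolar type 2 markers to 3.40, 14.7, 16.8 and 36.9 against 53.6, 105, 406 and 283 CPM. The Calca-0 class therefore held airway and alveolar RNA, most of all in the RPC animals. Of the 9 club markers kept, 0 were at 0 in all 4 animals in Calca-rich nuclei. Of the 8 alveolar type 2 markers 1 was, namely Sftpc, which the rule required to be 0. Macrophage markers summed to between 10.01 and 15.1 CPM in Calca-rich and 27.3 to 45.5 CPM in Calca-0 nuclei. For this reason the comparisons below are also given against nuclei of low Calca (above 0 but under 0.1%) and in stricter classes. From the stricter classes, nuclei with airway, alveolar, stromal or immune transcripts had been removed. Nuclei with transcripts of genes leading airway and neuronal clusters had also been removed, so the filter did not act on markers of other cell types alone. It left 831 of 933, 747 of 913, 151 of 467 and 286 of 419 Calca-0 nuclei. Of the Calca-rich nuclei it left 92 of 103, 66 of 68, 979 of 1114 and 704 of 866. The stricter classes were defined after the data had been seen.

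The depth of Calca-rich against Calca-0 nuclei was lower in RP, alike in RPC1 and higher in RPC2. Their median depth was 2550, 2582, 3051 and 3244 transcripts, against 2925, 2802, 3047 and 2694 in Calca-0 nuclei. The class sums were 294050 and 203460 transcripts in RP and 4096216 and 3302581 in RPC, so the RP sums are less precise. Mitochondrial transcripts took 0.373, 0.518, 0.630 and 0.474% of Calca-rich sums against 0.297, 0.424, 0.432 and 0.236% of Calca-0 sums, higher in all 4 animals. The ribosomal RNA Rn18s-rs5 took 7.62, 5.78, 2.34 and 4.07% against 7.88, 6.82, 2.23 and 3.93%. The part of these differences in the results was not tested.

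The genes that set Calca-rich nuclei apart within an animal were compared next. Of 12076 genes tested with edgeR's quasi-likelihood test on sums per animal and class, with the animal as a block, 722 (5.98%) were higher and 1165 (9.65%) lower in Calca-rich than in Calca-0 nuclei at an adjusted p under 0.05. The counts of called list genes below are to be read against these shares. Irrespective of the test, 15.5% of genes were higher and 18.2% lower in all 4 animals. Against nuclei of low Calca, 549 of the 722 higher genes (76.0%) and 905 of the 1165 lower genes (77.7%) were called again in the same direction, and in the stricter classes 387 (53.6%) and 564 (48.4%). Without RPC1 the counts were 422 and 745, and without RPC2 424 and 935. The p-values given below for single genes are Benjamini-Hochberg adjusted values of this test, and fold changes are on the log2 scale with their standard errors, as Calca-rich over Calca-0. Both classes were cut from the same tumors by the level of 1 gene, so any gene whose level follows Calca from nucleus to nucleus had to differ.

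The cargo proteins of the secretory granule were higher. Of the 6 granin genes tested 5 were higher and 0 lower, with a median of 0.96 against -0.00 over all genes. Chga, which encodes chromogranin A, had 326, 231, 222 and 246 CPM in Calca-rich nuclei and 142, 170, 104 and 140 CPM in Calca-0 nuclei. Its Calca-rich values lay above its Calca-0 values in every animal and without overlap between the classes (1.93-fold, log2 0.95, SE 0.15, adjusted p 0.0027). Chgb, the gene of chromogranin B, differed by 0.97 (SE 0.17, adjusted p 0.0049). Resp18, a protein of the granule lumen, had 44.2, 19.7, 54.0 and 57.2 against 17.5, 19.1, 15.4 and 16.2 CPM, a difference of 1.5 (SE 0.28, adjusted p 0.0059) to which RP2 contributed little. Scg2 and Scg5 differed by 0.998 and 0.58 (adjusted p 0.031 and 0.025), calls that were lost without RPC1 (0.125 and 0.057) or RPC2 (0.17 and 0.15). In the stricter classes 3 of the 6 granins were called, Chga (0.79), Resp18 (1.12) and Scg5 (0.51), whereas Chgb and Scg2 had adjusted p of 0.063 and 0.062.

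The share of nuclei with a Chga transcript showed the same order when each nucleus was thinned to 2000 transcripts. It was 44.7, 41.2, 33.4 and 36.1% in Calca-rich and 21.4, 24.8, 16.7 and 23.4% in Calca-0 nuclei, and 25.0, 20.7, 9.29 and 17.2% in nuclei with macrophage markers. The Calca-rich share was above the macrophage share in every animal, while the Calca-0 share lay close to it in the RP animals. Without thinning it was 55.3, 48.5, 48.0 and 53.1% in Calca-rich nuclei.

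Processing enzymes of the peptide hormones differed gene by gene. Of 9 tested, 2 were higher and 1 lower. Pcsk1, the prohormone convertase that makes the first cuts in many precursors, had 469, 614, 971 and 894 CPM in Calca-rich and 175, 351, 334 and 389 CPM in Calca-0 nuclei. All 4 animals moved the same way and the classes did not overlap (2.45-fold, log2 1.29, SE 0.15, adjusted p 0.00055). Pam, the enzyme that amidates peptides such as CGRP and calcitonin at their ends, had 1234, 1755, 1726 and 1974 against 795, 1112, 1010 and 1044 CPM (1.73-fold, log2 0.79, SE 0.14, adjusted p 0.0042). Pcsk5 was lower by 2.51 on the log2 scale (SE 0.41, adjusted p 0.0031), but its adjusted p was 0.083 against nuclei of low Calca, and it fell below the count filter in the stricter classes. Calcb, the neighboring gene of the second CGRP, was read at few counts, with 17.0, 4.92, 7.57 and 12.7 against 3.76, 2.35, 4.31 and 3.87 CPM. It was higher by 1.5 (SE 0.41, adjusted p 0.037), a call that was lost without any 1 of the 4 animals (adjusted p 0.051 to 0.20). Calca and Calcb lie side by side, at 114230712 to 114235592 and 114317878 to 114322603 of GRCm39 chromosome 7. Ramp2, a subunit of an adrenomedullin receptor, had 20.4, 14.7, 17.3 and 19.98 against 22.9, 8.04, 16 and 17.8 CPM (0.20, SE 0.26, adjusted p 0.69). Calcrl and Ramp1, the genes of the CGRP receptor, did not pass the count filter, so this says nothing about that receptor. Of 21 genes of other peptides 0 passed the count filter.

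The release machinery went with the cargo. Of 24 exocytosis genes tested (29 on the list) 11 were higher and 0 lower, with a median of 0.49, and 11 of 27 and 9 of 24 were higher against nuclei of low Calca and in the stricter classes. Of all genes 6.03% and 4.70% were higher in those contrasts, in that order. Syt7, a calcium sensor of slow vesicle release, had 905, 472, 221 and 451 CPM in Calca-rich and 431, 205, 127 and 176 CPM in Calca-0 nuclei. The animals differed widely in its level, but within each animal the Calca-rich value was the higher one (log2 1.15, SE 0.14, adjusted p 0.00063). Ptprn2, a granule membrane protein, had 2183, 2276, 2470 and 2875 against 1220, 1282, 892 and 1262 CPM (log2 1.13, SE 0.16, adjusted p 0.0016). The small GTPases Rab3b and Rab27b, which tether granules, differed by 1.19 and 1.25 (adjusted p 0.0023 and 0.0031), and Rph3al, which binds them, by 1.02 (adjusted p 0.0023). Snap25, a SNARE protein of membrane fusion chosen after its values were seen, had 367, 467, 441 and 520 against 266, 272, 150 and 237 CPM (1.04, SE 0.18, adjusted p 0.0040). Exocytosis genes together summed to 13400, 10880, 11680 and 12920 CPM in Calca-rich and 9738, 8153, 7113 and 8415 CPM in Calca-0 nuclei, higher in 9 of 9 wells and in 28 of 28 combinations of animal and sublibrary. Granins were higher in 8 of 9 wells and 25 of 28 combinations, and every exception was in RP2. Their sums were 823, 654, 804 and 841.5 CPM in Calca-rich and 416, 562, 418 and 466 CPM in Calca-0 nuclei. Nuclei between the classes had 597, 675, 660 and 693 CPM, which in RP2 was more than in Calca-rich nuclei.

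Of 14 subunits of voltage-gated calcium channels 6 were higher, 1 was lower and 7 did not pass the test (median 0.40, and 0.16 against nuclei of low Calca and 0.15 in the stricter classes). Cacna1h, the pore of a T-type channel that opens near the resting potential, had 412, 934, 359 and 384 CPM in Calca-rich and 217, 384, 113 and 166 CPM in Calca-0 nuclei (log2 1.32, SE 0.15, adjusted p 0.00038). RP2 had the highest value in both classes. Cacna2d1, an auxiliary subunit, had 5992, 3219, 4805 and 4293 against 3476, 2410, 2224 and 2941 CPM (0.76, SE 0.17, adjusted p 0.016), and its call was lost without RP1 or RPC1 (adjusted p 0.051 and 0.054). Cacna2d4, Cacnb2 and Cacna1b differed by 1.65, 0.70 and 0.70, of which Cacna1b was lost without RP2, RPC1 or RPC2 (adjusted p 0.058, 0.059 and 0.088). The L-type pore Cacna1d was the gene that was lower, at 0, 0, 6.10 and 10.6 against 7.20, 23.1, 65.8 and 61.1 CPM (-2.98, SE 0.33, adjusted p 0.00038), with an adjusted p of 0.19 in the stricter classes.

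Genes of cAMP signaling, a pathway to which the CGRP receptor couples, went both ways, with 6 of 32 higher and 4 lower and a median of 0.11. These were 18.75% and 12.5% of the list, against 5.98% and 9.65% of all genes. The transcription factor Creb3l1 was higher by 1.48 (SE 0.24, adjusted p 0.0029), the adenylate cyclase Adcy2 by 0.96 (SE 0.20, adjusted p 0.0096) and the phosphodiesterase Pde3b by 0.87 (SE 0.17, adjusted p 0.0076). Without RP2, Adcy2 and Pde3b had adjusted p of 0.0515 and 0.051. The phosphodiesterases Pde4b and Pde7b were lower by 3.78 and 3.40 on the log2 scale, but in the stricter classes Pde4b had an adjusted p of 0.31 and Pde7b was not tested. Adcy3 was lower by 1.69 on the log2 scale (adjusted p 0.0017) and also in the stricter classes (adjusted p 0.0077). Of the monoamine genes, 2 of 6 were higher. Slc18a1, the transporter that fills granules with amines, had 428, 477, 618 and 570 against 247, 301, 254 and 412 CPM (0.85, SE 0.15, adjusted p 0.0051; 0.098 in the stricter classes). Th, the first enzyme of catecholamine synthesis, had 44.2, 4.92, 35.6 and 10.3 against 7.20, 2.68, 10.5 and 9.29 CPM (1.55, SE 0.41, adjusted p 0.033), and the call was lost without RP1, RP2 or RPC1 (adjusted p 0.11, 0.078 and 0.18). Tph1, the enzyme of serotonin synthesis, was chosen after its values were seen. It had 0, 24.6, 7.57 and 50.9 CPM in Calca-rich and 12.2, 66.3, 3.08 and 13.2 CPM in Calca-0 nuclei, lower in both RP and higher in both RPC animals (0.51, SE 0.59, adjusted p 0.65).

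**Figure D2:**
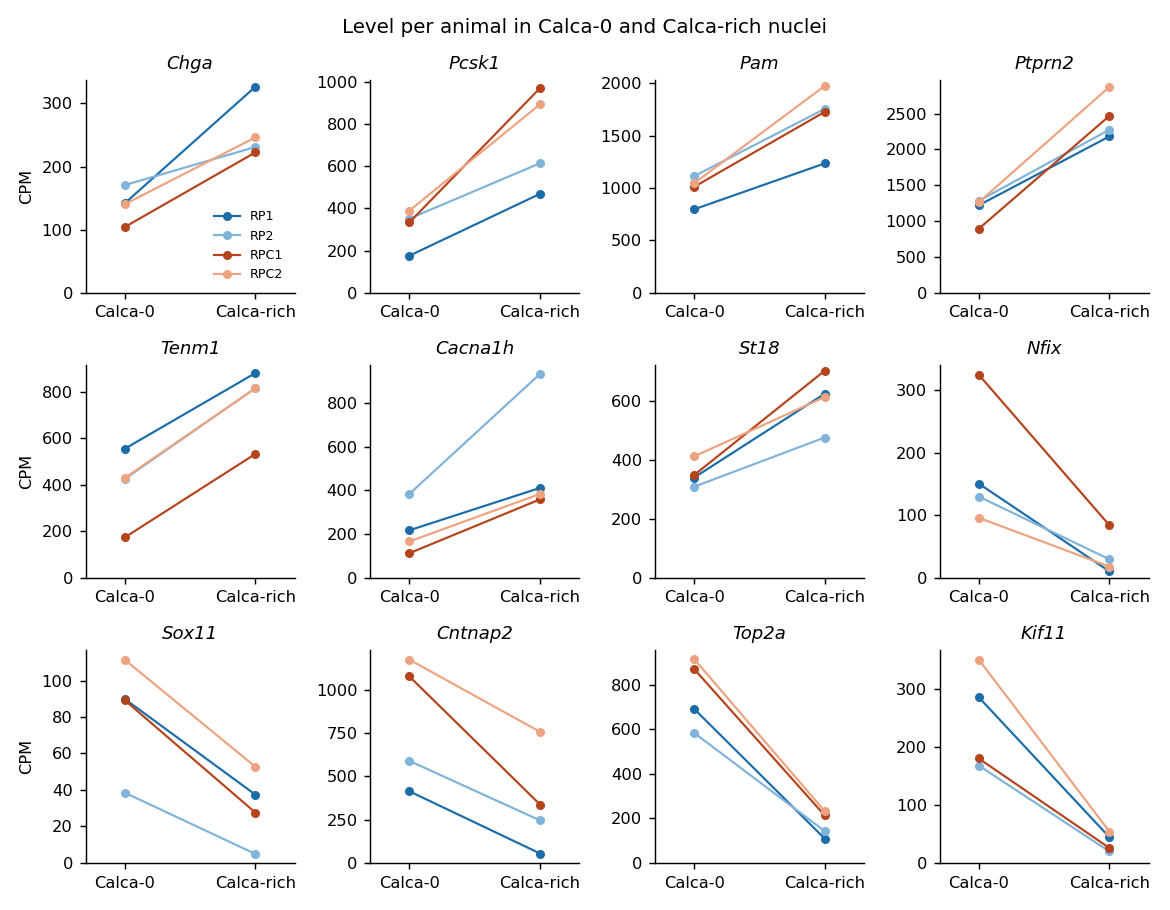
Level (CPM, linear axis from 0) of 12 genes in Calca-0 and Calca-rich nuclei, with a point per animal and class and a line joining the classes of an animal. Chga, Pcsk1, Pam, Ptprn2, Tenm1, Cacna1h and St18 lie higher in Calca-rich nuclei of all 4 animals, and Nfix, Sox11, Cntnap2, Top2a and Kif11 lie lower, with RP2 hidden by RPC2 for Tenm1.

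The promoters of Calca and Chga are shown, since Calca chose the nuclei and Chga is the second marker of the class. They are the 250 bases before the RefSeq start in the build GRCm38.p6, 5′ to 3′ on the strand of the gene, Calca from chr7:114636358-114636607 (minus strand) and Chga from chr12:102554691-102554940 (plus strand). Capitals mark the letters TGACG, the start of a cAMP response element, CAGCTG, an E-box, TTTGAA, the core of the cell cycle homology region (CHR), and CCAAT, searched on both strands. No match overlaps another here.
Calca: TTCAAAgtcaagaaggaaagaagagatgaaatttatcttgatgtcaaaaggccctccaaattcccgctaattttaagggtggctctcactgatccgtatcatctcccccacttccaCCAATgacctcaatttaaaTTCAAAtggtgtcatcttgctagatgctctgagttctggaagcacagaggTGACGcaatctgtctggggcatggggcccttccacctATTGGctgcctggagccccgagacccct
Chga: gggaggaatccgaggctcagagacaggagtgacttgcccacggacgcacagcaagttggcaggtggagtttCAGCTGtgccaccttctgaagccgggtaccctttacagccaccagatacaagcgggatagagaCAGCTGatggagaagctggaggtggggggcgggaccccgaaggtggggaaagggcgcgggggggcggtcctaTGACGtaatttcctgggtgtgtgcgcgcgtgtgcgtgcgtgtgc
In the Calca promoter TGACG begins 65 bases before the start, and in that of Chga 44 bases before it. CAGCTG stands 2 times in the Chga promoter, 179 and 116 bases before the start, and is not among the letters of the Calca window. CCAAT and TTTGAA are in the Calca window but not in that of Chga. Of the 16 granin and exocytosis genes called higher 12 were found in the promoter table, and 6 of them (50%) held TGACG, against 17.9% of all 27025 promoters. CAGCTG was in 5 of the 12 (41.7%), against 12.8% of all. These are letter matches in a short window and were not tested.

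Transcription factors of neuroendocrine and neuronal fate were split, with 3 of 19 higher and 6 lower (median -0.14). St18, a zinc finger factor of neural and endocrine cells, had 626, 477, 704 and 614 CPM in Calca-rich and 340.5, 309.5, 349 and 412.5 CPM in Calca-0 nuclei, so that the classes did not overlap (1.77-fold, log2 0.82, SE 0.13, adjusted p 0.0029). Its relative Myt1 was higher by 0.66 (adjusted p 0.039), with an adjusted p of 0.10 in the stricter classes and of 0.13, 0.0896 and 0.20 without RP2, RPC1 and RPC2.

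Of the nuclear factor I genes, Nfix, Nfib and Nfia were lower, while Nfic did not pass the test (0.19, SE 0.14, adjusted p 0.44). Nfix had 10.2, 29.5, 84.0 and 17.9 CPM in Calca-rich and 151, 130, 325 and 96.0 CPM in Calca-0 nuclei (4.89-fold lower, log2 -2.29, SE 0.23, adjusted p 0.0002), and it was also lower in the stricter classes (-1.55, adjusted p 0.010). Nfib, which opens chromatin and is amplified in some small cell lung cancers of mice, had 850, 678, 1626 and 753 against 1404, 1618, 1628 and 1723 CPM. In RPC1 its classes were alike, and the difference of -0.74 (SE 0.21, adjusted p 0.042) was lost without RP1, RP2 or RPC2 (adjusted p 0.10, 0.19 and 0.17). Nfia was lower by 1.83 on the log2 scale (adjusted p 0.012), with an adjusted p of 0.38 in the stricter classes and of 0.064 without RP2. Of the factors of immature neurons, Sox11 and Myt1l were lower and Sox4 was not called (-0.24, adjusted p 0.48). Nfic and Sox4 were chosen after their values were seen. Sox11, a factor of newborn neurons, had 37.4, 4.92, 27.6 and 52.7 against 89.9, 38.5, 89.2 and 111 CPM (-1.38, SE 0.21, adjusted p 0.0021), and Myt1l, a factor of neuronal fate, was lower by 1.33 on the log2 scale (adjusted p 0.0039). Both were also lower in the stricter classes (-1.32 and -0.97).

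Genes of neuronal differentiation and adhesion did not move as 1 group. Of 32 tested 4 were higher and 7 lower, with a median of -0.42. Tenm1, a teneurin, had 881, 816, 533 and 815 CPM in Calca-rich and 555, 425, 174 and 430 CPM in Calca-0 nuclei (log2 1.08, SE 0.17, adjusted p 0.0022). Its relative Tenm3 went the other way, with 6.80, 9.83, 5.37 and 11.2 against 56.1, 31.5, 55.4 and 41.0 CPM (5.73-fold lower, log2 -2.52, SE 0.33, adjusted p 0.00087). Cntnap2, an axonal adhesion protein, had 54.4, 246, 338 and 758 against 414, 590, 1078 and 1175 CPM (-1.45, SE 0.29, adjusted p 0.0083). Npas3, a neuronal transcription factor, had 27.2, 68.8, 19.04 and 85.4 against 721, 505, 105 and 187 CPM (5.42-fold lower, log2 -2.44, SE 0.41, adjusted p 0.0036). Tenm3, Cntnap2 and Npas3 were lower in all 4 animals, against nuclei of low Calca and in the stricter classes.

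Most genes of the Notch pathway did not pass the test. Of 16 Notch genes 1 was higher, the ligand Dll4 (1.54, SE 0.34, adjusted p 0.014), and 3 were lower, the target Hes1 and the receptors Notch2 and Notch3. These were 6.25% and 18.75% of the list, against 5.98% and 9.65% of all genes, so the share called higher was near that of all genes. Hes1 was not called without RPC1 (adjusted p 0.071) or against nuclei of low Calca (0.073), and Notch2 and Notch3 were not called without RP2 (0.10 and 0.060) or RPC1 (0.19 and 0.35). Dll4 had an adjusted p of 0.058 without RP2, of 0.054 without RPC1 and of 0.067 in the stricter classes. The noncanonical ligand Dner had 303, 447, 392 and 462 CPM in Calca-rich and 310.4, 293, 289.8 and 270.1 CPM in Calca-0 nuclei (0.50, SE 0.16, adjusted p 0.061), and Rbpj, the nuclear effector of the pathway, had 129, 162, 128 and 104 against 132.5, 115.2, 96.6 and 95.96 CPM (0.29, adjusted p 0.23). Of 6 non-neuroendocrine genes tested 5 were lower, among them Yap1 at 3.40, 0, 18.3 and 10.3 against 11.3, 22.1, 44.3 and 35.6 CPM (-1.57, SE 0.32, adjusted p 0.0087). In the stricter classes 3 of the list were tested, of which none was lower and 1, Anxa1, was higher (0.90, adjusted p 0.031). Yap1 differed there by -0.08 (adjusted p 0.96). The sums of airway and alveolar markers, given above, moved with this group, and their part in the result was not tested.

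The largest changes among well expressed genes were as follows. Slc26a9, a chloride channel of airway epithelium, had 170, 167, 255 and 265 CPM in Calca-rich and 31.3, 48.2, 75.1 and 46.4 CPM in Calca-0 nuclei (4.48-fold, log2 2.17, SE 0.18, adjusted p 9.1e-05). Cxcl13, a chemokine that attracts B cells, had 133, 29.5, 143 and 154 against 20.1, 12.1, 32.0 and 39.5 CPM (4.55-fold, log2 2.19, SE 0.21, adjusted p 0.00017). The other 8 of the 10 largest rises were Cib3, F730016J06Rik, Gm10280, Prom2, Pkd1l1, Faim2, Isx and Gm1043, at 2.03 to 2.23, and all 10 were also higher against nuclei of low Calca and in the stricter classes. Some rest on few transcripts. In the Calca-rich sums of RP1 and RP2, Cib3 had 6 and 7 and Gm1043 had 6 and 4. Isx, an intestinal homeobox factor, had 262, 138, 195 and 84.2 against 38.5, 29.8, 45.5 and 44.9 CPM. Vwf, the gene of von Willebrand factor and usually a marker of endothelium, was chosen after its values were seen. It had 1398, 1386, 2640 and 1836 CPM in Calca-rich and 343, 628, 712 and 478 CPM in Calca-0 nuclei (3.48-fold, log2 1.80, SE 0.18, adjusted p 0.00021). The other 9 endothelial markers summed to 10.2, 19.7, 11.5 and 41.5 CPM in Calca-rich nuclei. Of these, Flt1 and Ptprb were held at 0 by the rule, so part of this low sum was fixed by the choice of nuclei.

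The 10 largest falls were of another kind. They were Itprid1, Cbr2, Col23a1, Ano1, Col4a4, Pkhd1, Myo5c, Ccdc141, Tspan11 and Col4a3, at -5.80 to -5.12. Cbr2, an enzyme of club cells, had 0, 0, 1.95 and 4.54 CPM in Calca-rich and 14.7, 53.6, 185 and 156 CPM in Calca-0 nuclei. Col4a3, a collagen that alveolar type 1 cells make, had 0, 0, 3.17 and 6.66 against 16.3, 53.9, 130 and 214 CPM. Both were on the marker lists of club and alveolar type 1 cells, whose sums moved with them, and the part of those cells in the falls was not tested. In the stricter classes 9 of the 10 did not pass the count filter, and Col23a1 differed by -0.51 (adjusted p 0.63). Nuclei were left out of the stricter classes by transcripts of Col23a1, Pkhd1, Cbr2 and Col4a3, among other genes. The loss of these genes there followed from that choice and is no check of the falls.

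Genes of mitosis were lower in Calca-rich nuclei in every contrast used here. Of 30 proliferation genes 20 were lower and 0 higher in Calca-rich nuclei, with a median of -1.93. Kif11, the motor that separates the spindle poles, had 44.2, 19.7, 25.6 and 53.9 CPM in Calca-rich and 285, 168, 180 and 350 CPM in Calca-0 nuclei. Every Calca-rich value was below every Calca-0 value (6.58-fold lower, log2 -2.72, SE 0.15, adjusted p 2.6e-05). Top2a, which untangles DNA before division, had 109, 142, 213 and 232 against 691, 584, 870 and 915 CPM (4.30-fold lower, log2 -2.10, SE 0.16, adjusted p 6.5e-05). Mki67, the proliferation antigen that coats mitotic chromosomes, had 272, 310, 442 and 609 against 884, 738, 1101 and 1868 CPM (2.69-fold lower, log2 -1.43, SE 0.14, adjusted p 0.0002). Tpx2, Cenpe and Aurkb, which act at the spindle and the centromere, were lower by 2.39, 2.02 and 2.82 on the log2 scale.

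The list divided by phase when it was split after the values were seen. All 19 genes of mitosis and its entry were lower, from -2.92 for Birc5 to -1.43 for Mki67, with a median of -2.10, and all 19 were also lower against nuclei of low Calca and in the stricter classes. Of 11 genes of DNA replication and nucleotide supply 1 was lower, Rrm1 (-0.65, adjusted p 0.038; 0.11, 0.075 and 0.18 without RP2, RPC1 and RPC2), and the median was -0.02. Mcm2 and Mcm6, parts of the replicative helicase, had positive differences of 0.63 and 0.49 that did not pass the test (adjusted p 0.060 and 0.055). Against nuclei of low Calca Mcm2 was higher (0.44) and 3 of the 11 were lower. The split between the phases itself was not tested.

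The 30 genes together summed to 1221, 1347, 1746 and 2011 CPM in Calca-rich, 3271, 2738, 3918 and 4480 CPM in intermediate and 4175, 3499, 4685 and 6194 CPM in Calca-0 nuclei. The sum was lower in Calca-rich nuclei in 9 of 9 wells and in 28 of 28 combinations of animal and sublibrary. Nuclei were also counted singly after thinning to 2000 transcripts, as those with at least 2 transcripts of 7 mitosis genes (Mki67, Top2a, Cenpe, Cenpf, Kif11, Tpx2 and Nusap1). In Calca-rich nuclei these were 31.1, 22.1, 41.3 and 52.5%, in intermediate nuclei 64.1, 53.5, 68.3 and 73.3%, and in Calca-0 nuclei 72.8, 60.4, 69.6 and 77.8%. In nuclei with macrophage markers they were 42.1, 42.8, 45.0 and 58.6%. The Calca-rich shares lay below the macrophage shares in every animal. The intervals overlapped except in RP2 (12.9 to 33.8% against 34.6 to 51.2%). The part of background in the Calca-rich shares was not tested, so they give no count of cycling Calca-rich nuclei. Without thinning the Calca-rich shares were 40.8, 30.9, 58.5 and 68.1%.

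**Figure D3:**
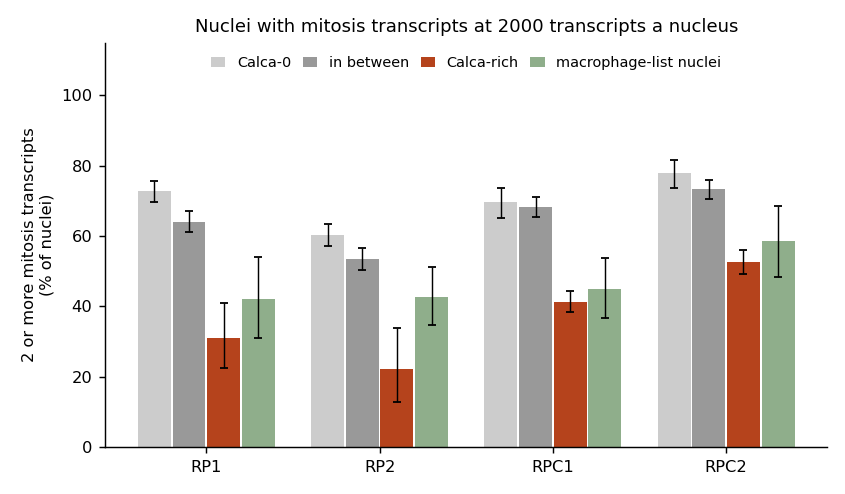
Share of nuclei (percent) with at least 2 transcripts of 7 mitosis genes after thinning to 2000 transcripts, by class and animal, with 95% exact binomial intervals. In each animal Calca-rich nuclei (22.1 to 52.5%) lie below intermediate and Calca-0 nuclei and below nuclei with macrophage markers (42.1 to 58.6%).

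The promoters of Top2a (chr11:99024190-99024439, minus strand) and Mki67 (chr7:135716380-135716629, minus strand) are shown as examples of genes lower in Calca-rich nuclei of every animal, with the same build, length and capitals as above. Other such genes differed in their letters. The promoters of Kif11 and Cenpe held TGACG, and that of Cenpf held CCAAT but no TTTGAA.
Top2a: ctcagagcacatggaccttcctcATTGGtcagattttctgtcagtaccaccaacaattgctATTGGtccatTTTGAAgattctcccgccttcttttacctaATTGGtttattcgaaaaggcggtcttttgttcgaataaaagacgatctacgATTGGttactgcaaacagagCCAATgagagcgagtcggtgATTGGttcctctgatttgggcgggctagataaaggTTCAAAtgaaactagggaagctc
Mki67: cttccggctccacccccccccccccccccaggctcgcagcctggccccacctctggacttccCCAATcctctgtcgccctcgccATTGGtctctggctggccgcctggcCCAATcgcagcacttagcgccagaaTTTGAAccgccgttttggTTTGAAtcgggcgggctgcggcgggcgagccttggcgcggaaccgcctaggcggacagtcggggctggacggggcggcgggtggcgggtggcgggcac
Top2a held CCAAT in 6 places and TTTGAA in 2, and Mki67 held CCAAT in 3 and TTTGAA in 2. Of the 20 proliferation genes called lower 16 were found in the promoter table. CCAAT was in 14 of them (87.5%, against 34.5% of all promoters) and TTTGAA in 6 (37.5%, against 16.3%), while TGACG was in 3 (18.8%, against 17.9%). The 2 groups thus held the letters at different rates, 50% with TGACG and 16.7% with CCAAT among the granin and exocytosis genes called higher, which is a description of 16 and 12 promoters.

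**Figure D4:**
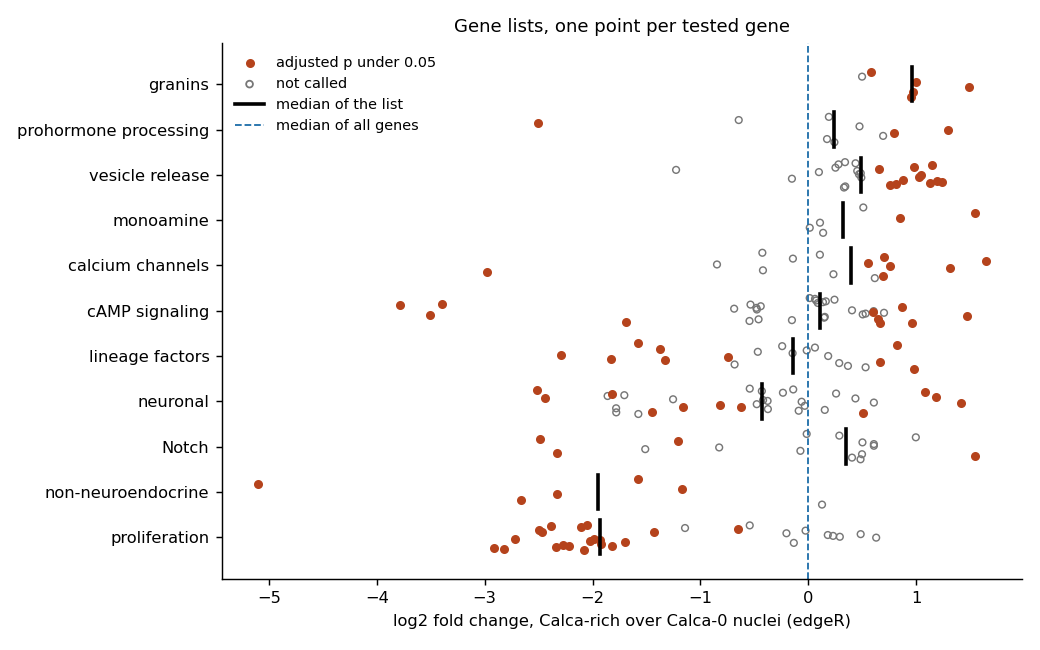
Log2 fold change of Calca-rich over Calca-0 nuclei for the tested genes of 11 lists, 1 point per gene, filled where the edgeR adjusted p was under 0.05, with the median of each list as a black bar and that of all genes as a dashed line. Granins and exocytosis genes lie mostly above 0, proliferation genes have a median of -1.93, and the neuronal and lineage factor lists spread to both sides.

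The levels were also followed over the range of Calca, where several genes differed already between bins below the threshold. Nuclei were divided into 5 bins of Calca share (0, above 0 to under 0.1%, 0.1 to under 0.3%, 0.3 to under 0.6%, and 0.6% and above). In RPC1 Top2a had 870, 852, 484, 220 and 117 CPM over these bins, and in RPC2 915, 905, 471, 240 and 155 CPM. Its level thus differed little between the first 2 bins and fell over the next 3. Pcsk1 rose in RPC1 from 334 to 659, 825, 967 and 1025 CPM, with its largest step between the first 2 bins. Ptprn2 had 1262, 1730, 2467, 2841 and 3195 CPM in RPC2 and 892, 1663, 2105, 2471 and 2453 CPM in RPC1, where the last 2 bins were alike. Nfib separated the RPC animals, with 1723, 1529, 1025, 772 and 573 CPM in RPC2 and 1628, 1758, 1715, 1636 and 1481 CPM in RPC1. The top bin held 91 and 95 nuclei in RPC and 5 and 4 in RP, whose values are not shown. Calca itself took at most 1.35% of the transcripts of a nucleus.

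**Figure D5:**
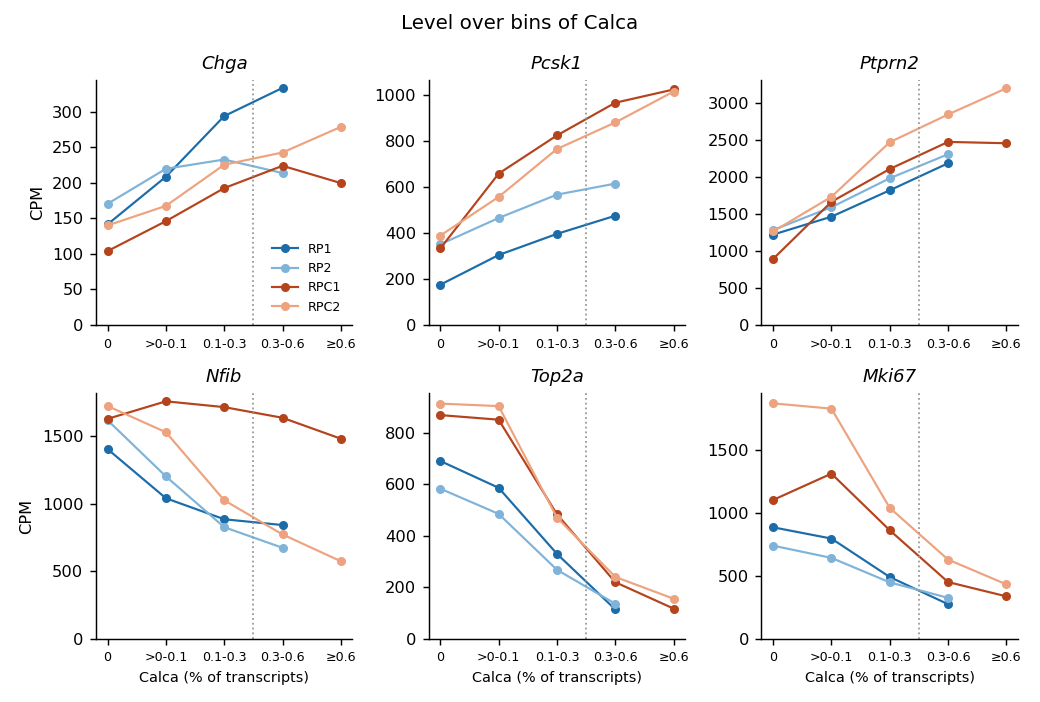
Level (CPM, linear axis from 0) of 6 genes over 5 bins of Calca share (percent of transcripts) in each animal, with the 0.3% threshold as a dotted line and bins under 20 nuclei left out. Top2a and Mki67 fall above 0.1% Calca, while Pcsk1 and Ptprn2 rise from the lowest bin on.

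Whether Calca-rich nuclei of RPC tumors differ from those of RP tumors was asked gene by gene. edgeR called 0 of 11176 genes (0%) at an adjusted p under 0.05, with 1136 at an unadjusted p under 0.05 and a smallest adjusted p of 0.33. DESeq2, the tool of the study, called 8 higher and 10 lower, with 3034 adjusted p left as NA. Without RPC1 edgeR called 23 higher and 6 lower, and without RPC2 2 and 3. Animals of the genotypes did not overlap for 44.5% of genes. The RP classes held 103 and 68 nuclei, which limits this comparison. On simulated counts the edgeR test recovered 11.1% of changes of 1 and 69.8% of changes of 2 on the log2 scale.

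The targeted genes were read in every animal. Casp8 had 64.6, 63.9, 78.1 and 59.6 CPM in Calca-rich nuclei, so the RPC animals lay on both sides of RP (0.05, SE 0.28, edgeR adjusted p 0.97). The deleted stretch of Casp8 is not given in the sources used here and the counts were made over the full gene, so these levels check nothing about the labels. Rb1 had 255, 295, 338 and 384 CPM and Trp53 10.2, 4.92, 17.6 and 10.9 CPM, with adjusted p of 0.61 and 0.71. The genes the study named come from these same samples and are no independent evidence. Animals of the genotypes did not overlap for 10 of the 14 tested, against 44.5% of all genes, and 0 passed the adjusted test. Kcnd2, a potassium channel, had 54.4, 108, 408 and 401 CPM (2.32, SE 0.33, edgeR adjusted p 0.39). Col8a1, a short-chain collagen, had 1534, 3357, 4334 and 5509 CPM (0.99, SE 0.42, adjusted p 0.49), and Grm5, a metabotropic glutamate receptor, 44.2, 496, 993 and 900 CPM (1.83, SE 0.85, adjusted p 0.51). Tenm2, a teneurin, varied widely between animals of a genotype, with 16850, 4242, 113 and 1754 CPM (-3.53, SE 1.298, adjusted p 0.47), and Mycl, a Myc family factor, had 20.4, 49.1, 5.86 and 9.39 CPM (-2.16, SE 0.60, adjusted p 0.47). Corin, a membrane protease, had the smallest unadjusted p (5.4e-05) and was chosen after its values were seen, with 30.6, 49.1, 459 and 312 CPM (3.27, SE 0.34, adjusted p 0.33).

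Some of these genes also differed between the Calca classes in the test over all 4 animals. No test was run within a genotype. Col8a1 had 1161, 1447, 1136 and 1525 CPM in Calca-0 nuclei and was higher in Calca-rich nuclei of all 4 animals (2.65-fold, log2 1.41, SE 0.25, adjusted p 0.0050). Corin had 9.40, 21.8, 106 and 103 CPM in Calca-0 nuclei and was higher in Calca-rich nuclei by 1.78 (SE 0.18, adjusted p 0.00022). Grm5 had 45.1, 223, 303 and 228 CPM in Calca-0 nuclei and was higher by 1.42 (SE 0.26, adjusted p 0.0055), except in RP1, where the classes were alike, and with an adjusted p of 0.10 in the stricter classes. Foxo1, a forkhead factor named by the study, had 184, 231, 471 and 271 CPM in Calca-rich and 118, 134, 217 and 198 CPM in Calca-0 nuclei (0.80, SE 0.14, adjusted p 0.0047). Mycl did not pass the test (-0.55, SE 0.38, adjusted p 0.40).

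Whether the Calca-rich program itself depended on the genotype was tested as an interaction. Of 13512 genes 1 (0.0074%) was higher in this contrast and 0 (0%) were lower, with 807 at an unadjusted p under 0.05. It was Dcc, the netrin receptor of growing axons. On simulated counts this test recovered 0% of changes of 1 and 20.2% of changes of 2 on the log2 scale. Few calls therefore do not show that the classes differed alike in both genotypes. Dcc had 235, 54.1, 131 and 398 CPM in Calca-rich and 1795, 420, 172 and 443 CPM in Calca-0 nuclei. The Calca-rich value was far below the Calca-0 value in both RP animals and little below it in both RPC animals, a difference of 2.72 on the log2 scale (SE 0.29, edgeR adjusted p 0.026). The call was lost without RP1 or RP2 (adjusted p 0.86 and 0.070). Without RPC1 the interaction called 66 higher and 8 lower genes, and without RPC2 53 and 71.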

How the data were processed

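Single-nucleus RNA sequencing used split-pool barcoding (Parse Evercode) of nuclei from 4 mice, 2 per genotype. The authors processed the reads with the Parse pipeline against GRCm39 with Ensembl genes, and the deposited matrices hold raw counts of transcripts per nucleus and gene, not normalized, with 1 matrix per animal merging 7 sublibraries. Of the columns in the deposited tables of nuclei, 8 with values per nucleus were not used. Each table names 56941 genes. Groups came from the labels, by animal.

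Nuclei were classed by the rule given with the results. The members, the gene lists and the tests were chosen with earlier results of these data known. Counts were summed per animal and class, and no doublets were removed beyond the depth limit of 12000 transcripts. Classes were compared with edgeR 4.0.16 under R 4.3.3 (quasi-likelihood, legacy fit, TMM, filterByExpr, two-sided), with the animal as a block, since both classes come from the same animals. RPC was compared with RP without a covariate, and the interaction with the animal as a block. Adjusted p under 0.05 was the threshold, and SE is the absolute log2 fold change over the square root of F. CPM values were taken on the class sums, without TMM. Calca and the 5 excluded genes were left out of calls. Thinning drew 2000 transcripts per nucleus (seed 1), with 1000 intermediate nuclei per animal. Intervals are exact binomial at 95% and cover counting error only.

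Named genes were the 10 largest rises and the 10 largest falls past the threshold (mean log2 CPM 4 or more, 1 sign in all 4 animals), up to 5 called genes per direction and the 2 highest genes of each list, the genes named in the study, the targeted genes, and Calca, Calcb and Chga. Some genes that meet this rule are not reported here. Alternatives were other scalings, DESeq2 1.42.0, no count filter, thresholds of 0.2 and 0.5%, at most 4000 transcripts, other exclusions, matched depth (bins of 500 transcripts), other contrasts and each animal left out. The stricter classes, the scaling by library size alone and the background from Flt1 and Ptprb were added after the data had been seen. The stricter classes left out nuclei with at least 2 transcripts of any other cell type list once 7 markers held by tumor nuclei were dropped. They also left out nuclei with at least 3 transcripts of 6 genes leading airway and neuronal clusters. These genes were Adarb2, Isl1, Grik2, Col23a1, Samd4 and Pkhd1. Scripts were tested on simulated data. Tables were made in Python 3.11.15 with scipy 1.17.1, pandas 2.3.3 and numpy 2.4.6, and figures with matplotlib 3.10.9.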

Additional observations from a re-analysis of the deposited data

Results flagged for a closer look

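Dcc was the gene whose difference between Calca-rich and Calca-0 nuclei itself differed between genotypes by the interaction test of edgeR. The log2 difference between RPC and RP was 2.72 (SE 0.29, adjusted p 0.026). The Calca-rich values rest on 69 and 11 transcripts in RP1 and RP2 and on 535 and 1316 in RPC1 and RPC2, and RP1 also held the highest Calca-0 level (1795 CPM).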

How the results depend on the processing

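Of 722 higher and 1165 lower genes in Calca-rich nuclei, 138 and 212 were called when nuclei with 3 transcripts of another cell type list were left out, a list that includes genes the tumor expresses and leaves 14 to 100 Calca-rich nuclei per animal. Leaving out 1 animal gave 422 to 670 higher and 745 to 1161 lower genes, the lowest without RPC1. The 0.5% threshold gave 392 higher genes, no replicate block 273 and 562, no count filter 1920 lower genes, matched depth 755 and the stricter classes 725. RLE gave 692 and 1216 and DESeq2 548 and 988. Of the named genes' differences between the classes, 1192 values over all alternatives kept their direction and their side of the threshold, 131 lost the call (31 of them with no replicate block), 6 gained it and 6 changed sign, namely Mcm2 (-0.42), Mcm6 (-0.36) and Myt1 (-0.0785) with the other cell type lists left out, Notch2 in the stricter classes (0.0078) and Tph1 without RPC2 (-0.44, within -0.44 to 1.14 over the animals left out) and with no replicate block (-0.00787).

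Between RPC and RP, no count filter called 171 higher and 89 lower genes, DESeq2 8 and 10, the 0.5% threshold 3 and 1, and leaving out 1 animal 0 to 23 and 0 to 6. With a replicate block, although the numbers only name the animals and 2 pairs cannot check a pairing, it was 15 and 7. Casp8 changed sign without RPC1 (-0.10, within -0.10 to 0.20 over the animals left out), at the 0.5% threshold (-0.59) and in the stricter classes (-0.00323), and Trp53 at the 0.2% threshold (-0.0114).

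In the interaction, 0 genes were called at 0.2%, with the other cell type lists left out, with 3 neuroendocrine transcripts required and at matched depth. The 0.5% threshold gave 11 higher and 3 lower genes, the low Calca contrast 11 and 1, the stricter classes and no count filter 2 higher each, and leaving out 1 animal 0 to 66 and 0 to 71.

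At a threshold of 0.2% the Calca-rich share was 8.82, 6.14, 36.7 and 32.6% in RP1, RP2, RPC1 and RPC2, at 0.5% 0.357, 0.190, 3.14 and 4.02%, and with at most 4000 transcripts 4.04, 2.53, 20.7 and 18.8%. Unthinned, the mitosis share was 80.3, 67.1, 79.7 and 82.8% in Calca-0 nuclei and 58.5 and 68.1% in Calca-rich nuclei of RPC. The cause of these changes was not tested. The 294050 and 203460 transcripts of the RP Calca-rich classes limit every comparison with them.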
